A study of Homo sapiens with 16 samples.

Results

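The genes described here are 41 that carry out or govern autophagy, chosen by symbol and known role, with earlier results of these data known. All 41 had a row among the 25369 genes of the table. They were sorted into 7 role groups: 5 genes of the ULK initiation complex, 6 of the class III PI3-kinase complexes, 6 of membrane and lipid supply, 11 of the conjugation systems, 5 of the ATG8 family, 5 cargo receptors and 3 regulators. In each cell line 40 of them passed the filter on low counts and were tested. The exception was MAP1LC3A, which encodes LC3A and held a single read in 5 of the 16 libraries and none in the rest.

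Autophagy encloses cytoplasm in a double membrane, the autophagosome, and delivers it to lysosomes. The ULK complex starts the process and is held back by mTORC1, a PI3-kinase complex marks the forming membrane, and 2 ubiquitin-like conjugation systems attach ATG8 proteins such as LC3B to it. Cargo receptors bind both cargo and ATG8 proteins, and transcription factors of the TFEB family drive many of these genes along with lysosomal ones. Transcript levels do not measure autophagic flux, since LC3B and the receptor p62 are themselves consumed by it.

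The study asked how 2 repressors of p53, the ubiquitin ligase MDM2 and the phosphatase PPM1D, together restrain the p53 response in thyroid carcinoma. TPC1 and K1, lines labelled as papillary thyroid carcinoma, of which K1 derives from GLAG-66, were exposed for 24 h to 0.2% DMSO as vehicle, to 10 µM nutlin, an MDM2 inhibitor labelled Nutlin-3a, to 25 µM GSK2830371, a PPM1D inhibitor, or to both drugs, here called the combination. TPC1 was grown in RPMI and K1 in DMEM, both with fetal bovine serum. Stranded, polyadenylated RNA was sequenced from 2 libraries in each of the 8 groups, 16 in all. The study describes its replicates as prepared independently, while the labels do not say which cultures the libraries came from. A p-value here rests on the spread between the 2 libraries of a group, pooled over the groups fitted together and in part over genes.

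Levels are given as CPM, the read count of a gene scaled to a common library total, one value per library, with replicate 1 before replicate 3 in TPC1 and replicate 1 before replicate 2 in K1. A TPC1 library held 30789887 to 76648552 counts and a K1 library 28888686 to 37161241. The TPC1 libraries of replicate 3 were all deeper than those of replicate 1. As a check of the treatments, CDKN1A, the cell cycle inhibitor p21 induced by p53, stood at 128 and 150 CPM with DMSO, 6569 and 6689 with nutlin, 167 and 183 with GSK2830371 and 11142 and 12705 with the combination in TPC1 and at 110 and 118 CPM with DMSO, 978 and 1046 with nutlin, 229 and 227 with GSK2830371 and 1549 and 1611 with the combination in K1. MDM2, itself a p53 target, rose with nutlin by 4.96 ± 0.106 on the log2 scale in TPC1 and 3.05 ± 0.0682 in K1. Of 7 thyroid markers 3 reached 1 CPM in each line, and the sum of the 7 ran from 306 to 481 CPM in TPC1 and 781 to 880 in K1. The TSH receptor gene TSHR was at 0 in every library of both lines, and NKX2-1 in every library of TPC1. The sum of 5 epithelial markers ran from 414 to 910 CPM in TPC1 and 920 to 1291 in K1, with 2 of 5 reaching 1 CPM, and that of 7 markers of fibroblasts, endothelium and leukocytes from 43.3 to 78 and 60.1 to 79.8 CPM, with 3 of 7. Among these, the stromal gene DCN and the leukocyte gene PTPRC were at 0 in every TPC1 library. CD68 made up most of that sum, at 34.2 and 36.5 CPM with DMSO and 66.3 and 71.7 with nutlin in TPC1. In K1 it stood at 64.3 and 54.8 CPM with DMSO. COL1A1 and LUM also reached 1 CPM. Of the epithelial markers KRT8 and KRT18 reached 1 CPM, while KRT19, EPCAM and CDH1 stayed under it in every library. In bulk RNA, fewer cells of a kind and less of a transcript in each cell cannot be told apart.

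Calls came from the quasi-likelihood test of edgeR and required a p below 0.05 after Benjamini-Hochberg adjustment over all genes tested in the line, together with a fold change over 1.5 in either direction. In TPC1, nutlin raised 12 of the 40 autophagy genes tested, which is 30%, where 17.5% of all 15273 genes were called raised, and lowered 1, or 2.5%, where 18% of all genes were called lowered. The combination raised 14 of 40, or 35%, against 22.5% of all genes, and lowered 2, or 5%, against 21.7%. GSK2830371 alone raised 2 genes, SQSTM1 and ATG16L2, against 0.72% of all genes. It lowered 0 by edgeR and by DESeq2, where 3 of 40 fell below an unadjusted p of 0.05 and 0.681% of all genes were called. The median log2 fold change of the 40 genes was 0.34 with nutlin, 0.09 with GSK2830371 and 0.28 with the combination, while that of all genes lay between -0.01 and 0.00. In TPC1 the autophagy genes that moved past the threshold were thus mostly raised, whereas genes as a whole were called in both directions about evenly.

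In K1 fewer autophagy genes were called, as were fewer genes of any kind. Nutlin raised 3 of 40, or 7.5%, against 3.84% of the 15900 genes tested, and the combination raised 5, or 12.5%, against 7.62%. Neither lowered any by edgeR or DESeq2, where 5.43% and 8.09% of all genes were called lowered and where 3 and 5 of the 40 were lower at an unadjusted p under 0.05. GSK2830371 alone raised 0 and lowered 0 by both tools, against 0.736% and 1.49% of all genes, with 14 and 6 of the 40 past an unadjusted p of 0.05. Its changes in K1 were small in size. Without the fold minimum 12 autophagy genes were higher and 2 lower with GSK2830371 at an adjusted p under 0.05, where 8.4% and 10.8% of all genes were. The K1 medians over the 40 genes were 0.10, 0.09 and 0.19 for nutlin, GSK2830371 and the combination, against at most 0.02 over all genes.

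Adding GSK2830371 to nutlin raised 1 autophagy gene in each line by the same rule: MAP1LC3B in TPC1, against 6.46% of all genes, and GABARAPL1 in K1, against 1.16%. It lowered 0 in either line by edgeR and by DESeq2, where 5.66% of all genes in TPC1 and 1.52% in K1 were called, and 3 of 40 in each line were lower at an unadjusted p under 0.05. An interaction, the amount on the log2 scale by which the combination exceeded the sum of the single-drug changes, was called positive for MAP1LC3B in TPC1 (2.82% of all genes) and for RB1CC1 in K1 (1.79%). Negative interactions were called for 0 genes in both lines by edgeR, where 3.5% and 0.654% of all genes were called and 6 and 4 of the 40 were past an unadjusted p of 0.05. By DESeq2 1 was called in TPC1, SQSTM1, and 0 in K1.

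With scaling by library size alone, the split of calls over all genes shifted in several comparisons. In TPC1 it was 166 raised and 85 lowered with GSK2830371, in place of 110 and 104, and 338 positive and 705 negative interactions, in place of 431 and 534. In K1 it was 228 raised and 196 lowered for the combination against nutlin, in place of 184 and 242, and 404 positive and 77 negative interactions, in place of 284 and 104. Among the autophagy genes these comparisons kept their counts of calls with that scaling, except for 2 positive interactions in K1 in place of 1.

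**Figure D1:**
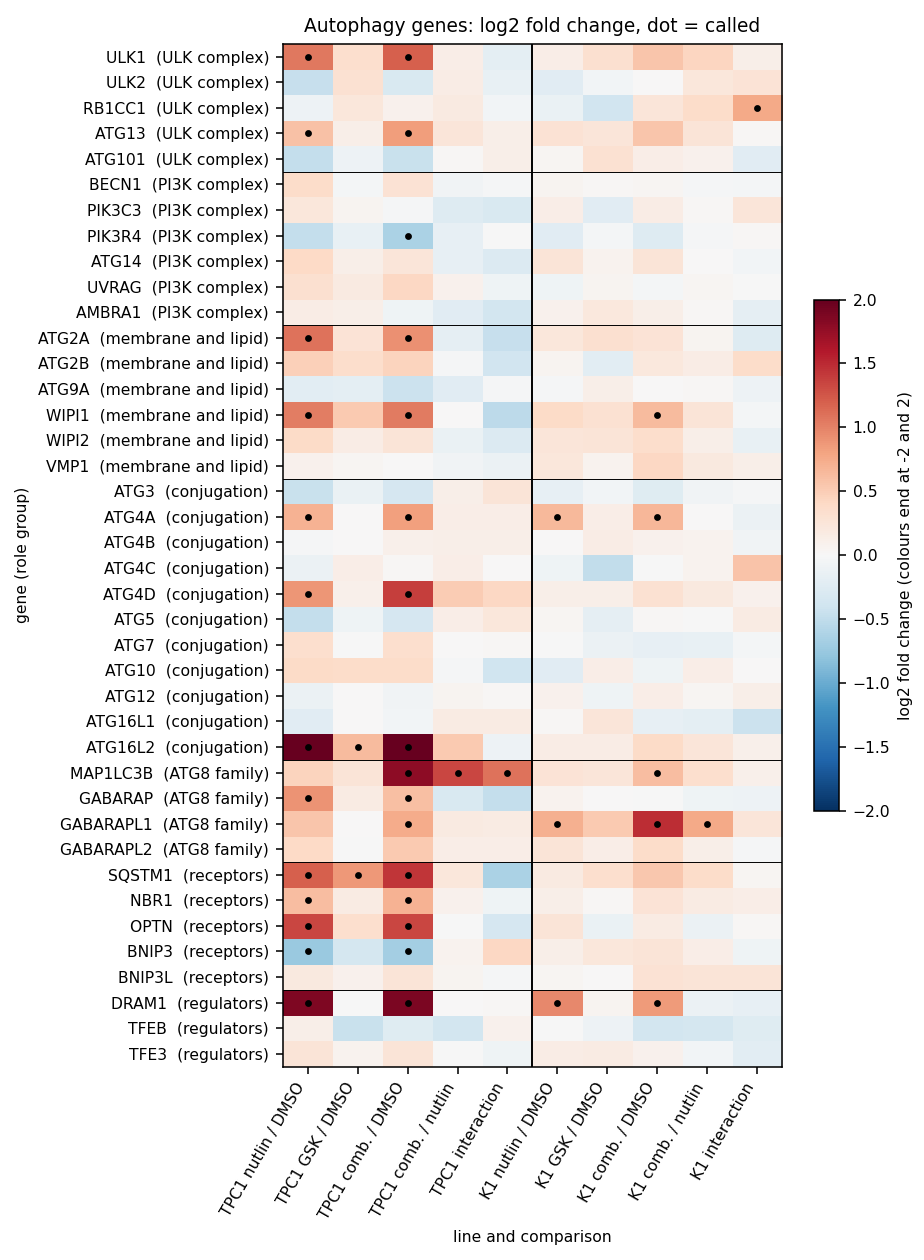
Log2 fold changes of the 40 tested autophagy genes (rows, by role group) in 5 comparisons of each line (columns), from blue (lower) to red (higher), with colours ending at -2 and 2. A dot marks a called gene. In the TPC1 columns, 12 dots stand in the nutlin column and 14 in the combination column on the raised side, against 3 and 5 in the K1 columns.

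In the ULK complex, the kinase gene ULK1 and its partner ATG13 rose in TPC1, while the other 3 genes stayed under the fold minimum. ULK1 (GRCh37 chr12:132379167-132407695, plus strand), the kinase that starts autophagosome formation, stood in TPC1 at 42.9 and 38.4 CPM with DMSO, 86.6 and 77.8 with nutlin, 55.6 and 50 with GSK2830371 and 91.6 and 86.8 with the combination. Its nutlin and combination libraries all lay above those of DMSO and of GSK2830371. The log2 fold change was 1.05 ± 0.0947 (SE, edgeR adjusted p = 1.5e-05) with nutlin and 1.19 ± 0.0948 (SE, edgeR adjusted p = 4.9e-06) with the combination. ATG13 (GRCh37 chr11:46639077-46696368, plus strand), the adaptor that holds the kinase to its complex, stood at 72.3 and 75.4 CPM with DMSO, 112 and 107 with nutlin, 82.6 and 83.9 with GSK2830371 and 129 and 125 with the combination. Each step from DMSO to GSK2830371, nutlin and the combination separated the libraries without overlap. The change was 0.59 ± 0.0715 (SE, edgeR adjusted p = 9.9e-05) with nutlin, close to the fold minimum, and 0.83 ± 0.0716 (SE, edgeR adjusted p = 7.9e-06) with the combination. The nutlin call was lost with scaling by library size alone (0.56) or with a correction for GC content and length (0.55), and without DMSO replicate 1 or nutlin replicate 1 (0.56 each).

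ATG101, another adaptor of the complex, was lower in TPC1 by an amount under the fold minimum, at -0.47 ± 0.101 with nutlin and -0.45 ± 0.101 with the combination on the log2 scale. Over the 5 genes, log2 fold changes in TPC1 ran from -0.47 for ATG101 to 1.05 for ULK1 with nutlin, from -0.10 for ATG101 to 0.33 for ULK1 with GSK2830371, and from -0.45 for ATG101 to 1.19 for ULK1 with the combination. Between the combination and nutlin they ran from 0.02 for ATG101 to 0.24 for ATG13, and the interactions from -0.19 for ULK1 to 0.12 for ATG101. The complex was thus not raised as a whole in TPC1, where its median change was -0.10 with nutlin and 0.08 with the combination.

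In K1, ULK1 stood at 39.7 and 35.6 CPM with DMSO, 40.2 and 41.5 with nutlin, 45 and 48.6 with GSK2830371 and 57.4 and 55.7 with the combination. Its nutlin libraries were the closest to DMSO and its combination libraries the highest. The combination change of 0.55 ± 0.0704 (SE, edgeR adjusted p = 2.5e-05) and that of ATG13, 0.55 ± 0.053 (SE, edgeR adjusted p = 2e-06), passed the test but not the fold minimum. With scaling by library size alone that of ULK1 was 0.59 and called (edgeR adjusted p = 3.1e-05). Without DMSO replicate 1 it was 0.64, over the minimum. RB1CC1, which encodes the scaffold FIP200 of the complex, stood in K1 at 94.2 and 81.9 CPM with DMSO, 84.4 and 74.8 with nutlin, 60.6 and 73.2 with GSK2830371 and 98.8 and 114 with the combination. GSK2830371 alone gave the lowest levels, and the combination libraries lay above those of every other group. The interaction was 0.76 ± 0.133 (SE, edgeR adjusted p = 0.009), over single-drug changes of -0.14 ± 0.094 for nutlin and -0.39 ± 0.0948 for GSK2830371. RB1CC1 has a GC content of 37.8% over its exons, and with a correction for GC content and length the interaction was 0.43, no longer called. It was also not called without combination replicate 2 (0.67, adjusted p = 0.058 by edgeR) or nutlin replicate 2 (0.69, adjusted p = 0.078).

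Across the complex, K1 changes ran from -0.23 for ULK2 to 0.29 for ATG13 with nutlin (median 0.04), from -0.39 for RB1CC1 to 0.32 for ULK1 with GSK2830371 and from 0 for ULK2 to 0.55 for ULK1 with the combination (median 0.24). Against nutlin the combination gave values from 0.09 for ATG101 to 0.43 for ULK1, and the interactions ran from -0.22 for ATG101 to 0.76 for RB1CC1.

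The 6 genes of the PI3-kinase complexes gave 1 call in the treatment comparisons of both lines, a fall of PIK3R4 in TPC1 with the combination. PIK3R4 (GRCh37 chr3:130397778-130465673, minus strand), which encodes the regulatory subunit VPS15 of the lipid kinase VPS34, stood at 46.3 and 41.1 CPM with DMSO, 30.8 and 30.2 with nutlin, 43.2 and 38.6 with GSK2830371 and 27.3 and 26.7 with the combination. Nutlin and combination libraries lay below all DMSO and GSK2830371 libraries. The combination change was -0.64 ± 0.0878 (SE, edgeR adjusted p = 0.00017), and the nutlin change of -0.48 ± 0.0876 (SE, edgeR adjusted p = 0.0013) did not reach the fold minimum. Without DMSO replicate 1 the combination change was -0.56, under the minimum. BECN1, encoding the scaffold Beclin 1, was called in neither line and measured 0.29 ± 0.077 in TPC1 with the combination and 0.04 ± 0.0604 in K1.

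TPC1 changes of the group ran from -0.48 for PIK3R4 to 0.40 for ATG14 with nutlin (median 0.27), -0.15 for PIK3R4 to 0.18 for UVRAG with GSK2830371 and -0.64 for PIK3R4 to 0.41 for UVRAG with the combination (median 0.11). Its range was -0.26 for PIK3C3 to 0.09 for UVRAG for the combination against nutlin and -0.36 for AMBRA1 to -0.01 for PIK3R4 for the interaction. K1 ranges were -0.23 for PIK3R4 to 0.25 for ATG14 with nutlin (median 0.07), -0.22 for PIK3C3 to 0.21 for AMBRA1 with GSK2830371, -0.26 for PIK3R4 to 0.26 for ATG14 with the combination (median 0.07), -0.03 for PIK3R4 to 0.04 for UVRAG for the combination against nutlin and -0.18 for AMBRA1 to 0.24 for PIK3C3 for the interaction.

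Of the 6 genes for membrane and lipid supply, ATG2A and WIPI1 rose in TPC1, and WIPI1 also rose in K1 with the combination. ATG2A (GRCh37 chr11:64662018-64684681, minus strand), whose product carries lipid into the growing membrane, stood in TPC1 at 60.2 and 51.8 CPM with DMSO, 123 and 110 with nutlin, 75.1 and 65.4 with GSK2830371 and 116 and 86.5 with the combination. The nutlin and combination libraries were all above the other libraries, and combination replicate 3 was the lowest of them. The changes were 1.09 ± 0.141 (SE, edgeR adjusted p = 0.00016) and 0.91 ± 0.14 (SE, edgeR adjusted p = 0.00038). WIPI1 (GRCh37 chr17:66417089-66453654, minus strand), which binds the lipid made by the PI3-kinase, stood in TPC1 at 7.29 and 8.06 CPM with DMSO, 15.2 and 15.5 with nutlin, 10.8 and 12.2 with GSK2830371 and 16.9 and 13.8 with the combination. It was raised to about the same level by nutlin, 1.03 ± 0.12 (SE, edgeR adjusted p = 8.2e-05), and by the combination, 1.04 ± 0.12 (SE, edgeR adjusted p = 5.7e-05).

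In K1 WIPI1 stood at 66.4 and 69.1 CPM with DMSO, 87.1 and 87.4 with nutlin, 85.5 and 80.8 with GSK2830371 and 108 and 107 with the combination, higher in every library than in any TPC1 library. Groups of K1 did not overlap with DMSO, and the combination stood above both single drugs. The combination change was 0.64 ± 0.0547 (SE, edgeR adjusted p = 6.1e-07), while those of nutlin, 0.38 ± 0.055, and GSK2830371, 0.30 ± 0.0551, were under the fold minimum.

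ATG9A, the scramblase of the vesicles that seed autophagosomes, went the other way in TPC1, with -0.43 ± 0.0729 (SE, edgeR adjusted p = 0.00065) under the combination, short of the fold minimum. VMP1, an endoplasmic reticulum protein of autophagosome formation whose exons share 72 bases on the same strand with the microRNA gene MIR21, measured 0.01 ± 0.106 in TPC1 and 0.41 ± 0.0656 in K1. The group ran in TPC1 from -0.21 for ATG9A to 1.09 for ATG2A with nutlin (median 0.43), -0.19 for ATG9A to 0.53 for WIPI1 with GSK2830371, -0.43 for ATG9A to 1.04 for WIPI1 with the combination (median 0.35), -0.23 for ATG9A to 0.01 for WIPI1 for the combination against nutlin and -0.52 for WIPI1 to -0.03 for ATG9A for the interaction. In K1 the corresponding ranges were -0.02 for ATG9A to 0.38 for WIPI1 (median 0.22), -0.21 for ATG2B to 0.32 for ATG2A, 0 for ATG9A to 0.64 for WIPI1 (median 0.31), 0.02 for ATG9A to 0.26 for WIPI1 and -0.26 for ATG2A to 0.36 for ATG2B.

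The 11 conjugation genes divided. In TPC1 the ATG8 proteases ATG4A and ATG4D and the adaptor ATG16L2 rose, while the core conjugation genes ATG3, ATG5, ATG7, ATG10 and ATG12 were not called in any treatment comparison. ATG16L2 (GRCh37 chr11:72525451-72554719, plus strand), a relative of the adaptor ATG16L1 that places LC3 conjugation at membranes, stood in TPC1 at 2.98 and 2.61 CPM with DMSO, 11.9 and 10.5 with nutlin, 4.4 and 4.45 with GSK2830371 and 16.6 and 15.2 with the combination. It had the largest fold change of the 41 genes with nutlin, 2.04 ± 0.122 (SE, edgeR adjusted p = 1.1e-06), and with the combination, 2.57 ± 0.121 (SE, edgeR adjusted p = 1.5e-07), from a low DMSO level. GSK2830371 alone raised it by 0.63 ± 0.127 (SE, edgeR adjusted p = 0.036), with both libraries above both DMSO libraries. That last call was lost without any one of the DMSO, GSK2830371 or nutlin libraries, with adjusted p from 0.061 to 0.2 by edgeR, and when the model held the 2 compared groups alone (adjusted p = 0.1). ATG16L1 measured -0.22 ± 0.0718 with nutlin in TPC1.

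ATG4D (GRCh37 chr19:10654571-10664094, plus strand), a protease that processes ATG8 proteins, stood at 19.3 and 20.2 CPM with DMSO, 34.2 and 36.9 with nutlin, 21 and 22.6 with GSK2830371 and 47.8 and 51.9 with the combination. Combination libraries were above nutlin libraries, and those above the rest. The nutlin change was 0.88 ± 0.0894 (SE, edgeR adjusted p = 3.3e-05), the combination change 1.39 ± 0.0895 (SE, edgeR adjusted p = 1.2e-06), and the combination stood 0.50 ± 0.0874 above nutlin (edgeR adjusted p = 0.0035), under the fold minimum. ATG4A (GRCh37 chrX:107334898-107397901, plus strand), a protease of the same family, stood at 6.34 and 6.89 CPM with DMSO, 8.96 and 11.8 with nutlin, 6.9 and 6.9 with GSK2830371 and 9.79 and 12.7 with the combination in TPC1 and at 12.5 and 13.3 CPM with DMSO, 19.6 and 20.7 with nutlin, 13.4 and 14.9 with GSK2830371 and 21.6 and 20.2 with the combination in K1. In both lines the nutlin and combination libraries lay above all others. Nutlin changed it by 0.69 ± 0.166 (SE, edgeR adjusted p = 0.0064) in TPC1 and 0.65 ± 0.0863 (SE, edgeR adjusted p = 6.6e-05) in K1, and the combination by 0.82 ± 0.165 (SE, edgeR adjusted p = 0.0019) and 0.66 ± 0.0858 (SE, edgeR adjusted p = 3.1e-05). The TPC1 nutlin call did not hold without nutlin replicate 3, where the change was 0.47 and the edgeR adjusted p 0.077. The remaining proteases ATG4B and ATG4C measured 0.10 ± 0.0853 and 0.02 ± 0.11 with the combination in TPC1.

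In K1, ATG4C, whose exons have a GC content of 34.4%, was lower with GSK2830371 by an amount under the fold minimum, -0.50 ± 0.114 (SE, edgeR adjusted p = 0.0084), and ATG16L1 had a negative interaction of -0.43 ± 0.101 (SE, edgeR adjusted p = 0.022). ATG5, part of the complex that completes LC3 conjugation, was lower in TPC1 with nutlin, -0.47 ± 0.103 (SE, edgeR adjusted p = 0.0036), and so was ATG3, the enzyme that transfers LC3 to lipid, -0.44 ± 0.0819 (SE, edgeR adjusted p = 0.0014), both short of the fold minimum. Conjugation genes in TPC1 ran from -0.47 for ATG5 to 2.04 for ATG16L2 with nutlin (median -0.02), -0.14 for ATG3 to 0.63 for ATG16L2 with GSK2830371, -0.34 for ATG5 to 2.57 for ATG16L2 with the combination (median 0.10), -0.03 for ATG10 to 0.53 for ATG16L2 for the combination against nutlin and -0.40 for ATG10 to 0.41 for ATG4D for the interaction. For K1 these were -0.22 for ATG10 to 0.65 for ATG4A (median 0.03), -0.50 for ATG4C to 0.24 for ATG16L1, -0.25 for ATG3 to 0.66 for ATG4A (median 0.03), -0.19 for ATG16L1 to 0.24 for ATG16L2 and -0.43 for ATG16L1 to 0.57 for ATG4C.

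**Figure D2:**
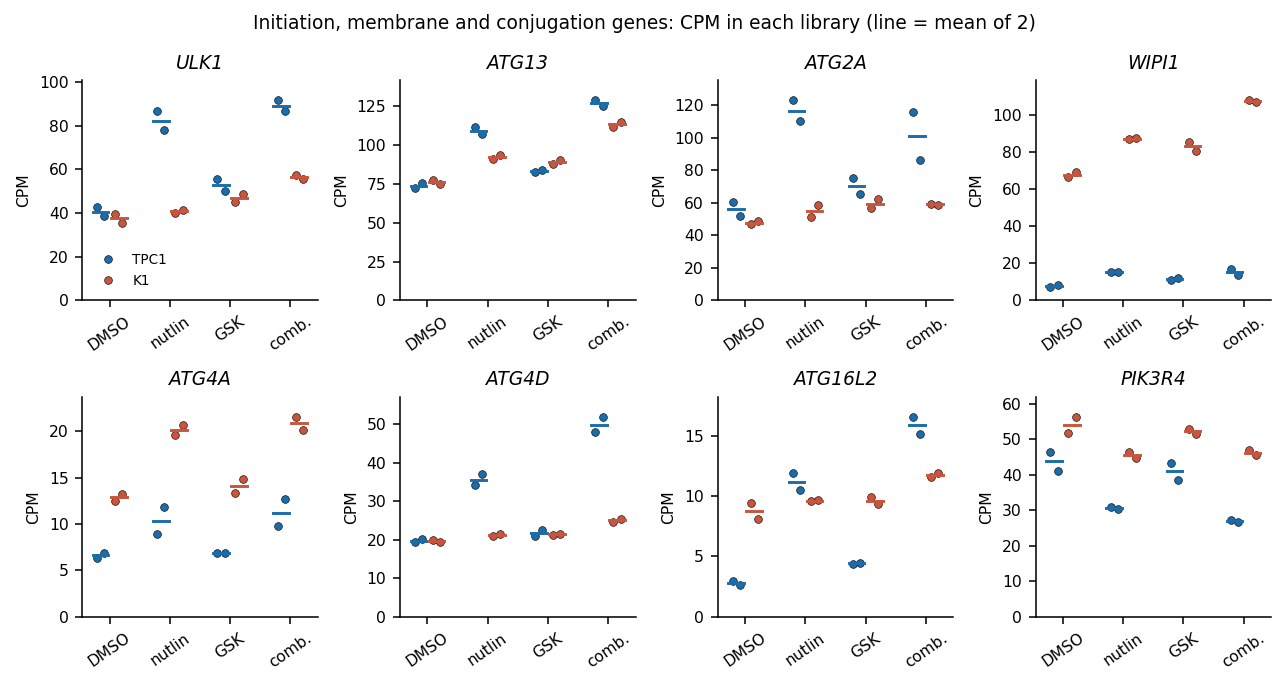
CPM (vertical axes, from 0) of 8 initiation, membrane and conjugation genes by treatment in TPC1 (blue) and K1 (red). Each point is a library and each short line the mean of 2. ATG16L2 climbs in TPC1 from 2.61 and 2.98 CPM with DMSO to 15.2 and 16.6 with the combination, and WIPI1 in K1 stands above every TPC1 library.

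The ATG8 family held both genes that the combination raised above nutlin, MAP1LC3B in TPC1 and GABARAPL1 in K1. MAP1LC3B (GRCh37 chr16:87417559-87438385, plus strand), which encodes LC3B, the protein coupled to autophagosome membranes, stood in TPC1 at 92.4 and 102 CPM with DMSO, 125 and 134 with nutlin, 115 and 125 with GSK2830371 and 356 and 291 with the combination. Both combination libraries lay far above every other library, and nutlin and GSK2830371 libraries lay slightly above DMSO. The combination change was 1.79 ± 0.106 (SE, edgeR adjusted p = 7.1e-07), against 0.45 ± 0.104 (SE, edgeR adjusted p = 0.0051) with nutlin and 0.26 ± 0.104 with GSK2830371. The combination stood 1.34 ± 0.105 (SE, edgeR adjusted p = 6.9e-05) above nutlin, and the interaction was 1.08 ± 0.147 (SE, edgeR adjusted p = 0.004). These were the single calls among the 40 genes in both comparisons.

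In K1 MAP1LC3B stood at 77.4 and 85 CPM with DMSO, 101 and 94.9 with nutlin, 98.4 and 91.7 with GSK2830371 and 129 and 126 with the combination. Here too the combination was the highest group, without overlap. The combination change of 0.62 ± 0.0618 (SE, edgeR adjusted p = 2.7e-06) was just over the fold minimum and measured 0.55, under it, without DMSO replicate 1. The K1 interaction was 0.10 ± 0.0875 (edgeR adjusted p = 0.54). Reads that match MAP1LC3B and its near-identical copy MAP1LC3B2 equally well can be lost with the poorly mapped reads that were discarded. MAP1LC3B2 held at most 13 reads in a library, which does not show how many were lost.

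GABARAPL1 (GRCh37 chr12:10365057-10375727, plus strand), an ATG8 protein of the GABARAP branch, led in K1, where it stood at 9.7 and 8.91 CPM with DMSO, 15 and 15.2 with nutlin, 13.5 and 13 with GSK2830371 and 25.6 and 27.3 with the combination. The combination libraries lay above those of nutlin and of GSK2830371, which lay above DMSO. The combination change was 1.48 ± 0.0814 (SE, edgeR adjusted p = 8.3e-09), nutlin gave 0.71 ± 0.0854 (SE, edgeR adjusted p = 2.6e-05) and GSK2830371 0.52 ± 0.0865 (SE, edgeR adjusted p = 0.0015), the last short of the fold minimum. The combination exceeded nutlin by 0.76 ± 0.0784 (SE, edgeR adjusted p = 8.7e-05). The interaction was 0.24 ± 0.117 (edgeR adjusted p = 0.23), which does not separate the combination from the sum of the single-drug changes. In TPC1 GABARAPL1 stood at 17.9 and 18.7 CPM with DMSO, 26.4 and 26.6 with nutlin, 19.9 and 18.4 with GSK2830371 and 28.1 and 30.9 with the combination. Nutlin and combination libraries were higher than the rest, with changes of 0.56 ± 0.087 (SE, edgeR adjusted p = 0.00048), under the fold minimum, and 0.74 ± 0.0867 (SE, edgeR adjusted p = 6.1e-05).

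GABARAP (GRCh37 chr17:7143327-7145768, minus strand), the founding member of that branch, stood in TPC1 at 105 and 152 CPM with DMSO, 214 and 256 with nutlin, 133 and 165 with GSK2830371 and 186 and 190 with the combination and in K1 at 132 and 125 CPM with DMSO, 127 and 141 with nutlin, 126 and 132 with GSK2830371 and 129 and 131 with the combination. The 2 TPC1 DMSO libraries differed widely, and the nutlin libraries were the highest. Nutlin changed it by 0.90 ± 0.177 (SE, edgeR adjusted p = 0.002) and the combination by 0.60 ± 0.176 (SE, edgeR adjusted p = 0.014) in TPC1, and the values in K1 were 0.07 ± 0.0622 and -0.01 ± 0.0622. The TPC1 combination call rested on the fold minimum and was lost without DMSO replicate 1 (0.35, edgeR adjusted p = 0.07), without combination replicate 3 (0.57, adjusted p = 0.058) and with scaling by library size alone (0.55). GABARAPL2, of the same branch, passed the test without the fold minimum with the combination in both lines, at 0.53 ± 0.102 (SE, edgeR adjusted p = 0.0014) in TPC1 and 0.37 ± 0.0619 (SE, edgeR adjusted p = 0.00026) in K1.

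Over the 4 ATG8 genes tested, TPC1 changes ran from 0.40 for GABARAPL2 to 0.90 for GABARAP with nutlin (median 0.51), -0.01 for GABARAPL2 to 0.26 for MAP1LC3B with GSK2830371, 0.53 for GABARAPL2 to 1.79 for MAP1LC3B with the combination (median 0.67), -0.30 for GABARAP to 1.34 for MAP1LC3B for the combination against nutlin and -0.47 for GABARAP to 1.08 for MAP1LC3B for the interaction. The K1 ranges were 0.07 for GABARAP to 0.71 for GABARAPL1 (median 0.27), 0.01 for GABARAP to 0.52 for GABARAPL1, -0.01 for GABARAP to 1.48 for GABARAPL1 (median 0.49), -0.09 for GABARAP to 0.76 for GABARAPL1 and -0.10 for GABARAP to 0.24 for GABARAPL1.

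**Figure D3:**
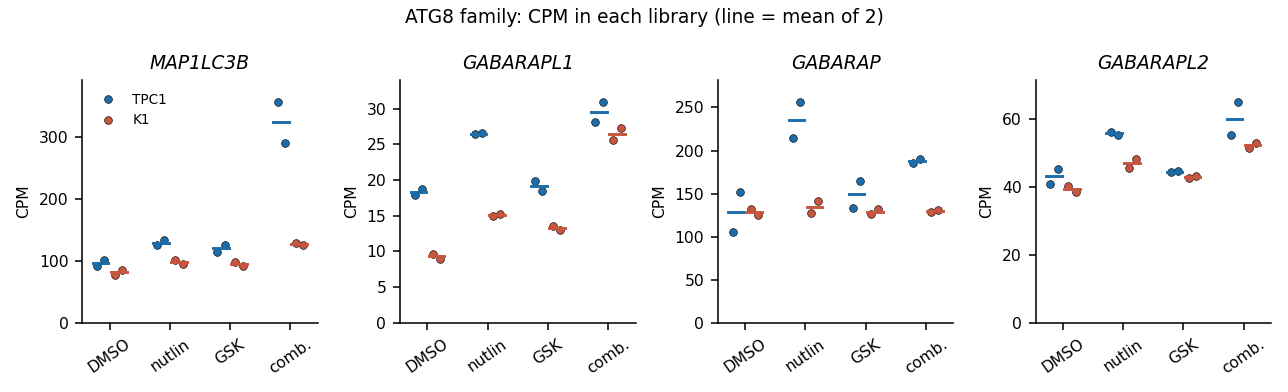
CPM (vertical axes, from 0) of the 4 tested ATG8 genes by treatment in TPC1 (blue) and K1 (red), with a point per library and a line at the mean of 2. MAP1LC3B in TPC1 reaches 291 and 356 CPM with the combination while no other TPC1 library exceeds 134, and GABARAPL1 in K1 climbs from 8.91 and 9.7 CPM with DMSO to 25.6 and 27.3.

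Of the 5 cargo receptors, SQSTM1, OPTN and NBR1 rose in TPC1 with nutlin and with the combination, and BNIP3 fell. SQSTM1 (GRCh37 chr5:179233398-179265078, plus strand), which encodes p62, the receptor for ubiquitylated cargo, stood in TPC1 at 788 and 860 CPM with DMSO, 1800 and 1897 with nutlin, 1521 and 1596 with GSK2830371 and 2517 and 1778 with the combination. Every treated library lay above DMSO, and combination replicate 1 was well above replicate 3. Nutlin changed it by 1.20 ± 0.141 (SE, edgeR adjusted p = 8.7e-05), GSK2830371 by 0.87 ± 0.14 (SE, edgeR adjusted p = 0.02) and the combination by 1.43 ± 0.142 (SE, edgeR adjusted p = 2e-05). The combination stood 0.23 ± 0.139 from nutlin (edgeR adjusted p = 0.26), with overlapping libraries. Its interaction was -0.64 ± 0.197 (SE, edgeR adjusted p = 0.082), negative and not called. It was called by DESeq2 (-0.62, adjusted p = 0.018) and by edgeR without the filter on low counts (adjusted p = 0.0017) or without combination replicate 1 (-0.89, adjusted p = 0.0093). It was also called by edgeR with the replicate number as a block (-0.64, adjusted p = 0.0052). The GSK2830371 call was lost without any one of the DMSO, GSK2830371 or nutlin libraries, with log2 fold changes from 0.80 to 0.95 and edgeR adjusted p from 0.052 to 0.15.

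SQSTM1 was the most abundant of the 41 genes, also per kilobase of exon, where DMSO levels averaged 109 CPM per kilobase in TPC1 and 216 in K1. The next was GABARAP, at 65.9 and 65.8. Summed over all 41 genes, TPC1 held 2804 and 2954 CPM with DMSO and 5209 and 4420 with the combination, and K1 3719 and 3741 and then 4906 and 4918, of which SQSTM1 made up a large share. In K1 SQSTM1 stood at 1606 and 1645 CPM with DMSO, 1823 and 1835 with nutlin, 2030 and 2025 with GSK2830371 and 2436 and 2409 with the combination. The order from DMSO through nutlin and GSK2830371 to the combination showed no overlap between groups. The changes of 0.18 ± 0.0488 (SE, edgeR adjusted p = 0.012), 0.33 ± 0.0488 (SE, edgeR adjusted p = 0.00084) and 0.54 ± 0.0489 (SE, edgeR adjusted p = 9.5e-07) passed the test without reaching the fold minimum.

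OPTN (GRCh37 chr10:13141449-13180308, plus strand), which encodes optineurin, a receptor for damaged mitochondria and bacteria, stood in TPC1 at 40.7 and 45.5 CPM with DMSO, 105 and 109 with nutlin, 54.3 and 57.7 with GSK2830371 and 112 and 97.9 with the combination. Nutlin and the combination gave nearly equal levels, well above DMSO and GSK2830371. The changes were 1.34 ± 0.0939 (SE, edgeR adjusted p = 2.8e-06) and 1.33 ± 0.0938 (SE, edgeR adjusted p = 2.1e-06). NBR1 (GRCh37 chr17:41322498-41363708, plus strand), a receptor related to p62, stood at 128 and 122 CPM with DMSO, 189 and 185 with nutlin, 150 and 142 with GSK2830371 and 195 and 196 with the combination. It followed the same order with smaller steps, 0.61 ± 0.0696 (SE, edgeR adjusted p = 6.8e-05) with nutlin and 0.70 ± 0.0696 (SE, edgeR adjusted p = 2.1e-05) with the combination, and its nutlin call was lost with scaling by library size or with the GC and length correction (0.58 in both).

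BNIP3 (GRCh37 chr10:133781188-133795471, minus strand), a mitochondrial receptor best known as a target of hypoxia signalling, was the receptor that fell in TPC1, from 204 and 241 CPM with DMSO to 121 and 137 with nutlin and 115 and 152 with the combination, with 173 and 189 under GSK2830371. All treated libraries lay below DMSO. Nutlin changed it by -0.75 ± 0.145 (SE, edgeR adjusted p = 0.0018) and the combination by -0.68 ± 0.144 (SE, edgeR adjusted p = 0.0026). The combination call was lost without combination replicate 1 (-0.48) or DMSO replicate 3 (-0.54). Its relative BNIP3L, also a mitochondrial receptor, measured 0.20 ± 0.107 and 0.26 ± 0.106 for the same comparisons.

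Receptor changes in TPC1 ran from -0.75 for BNIP3 to 1.34 for OPTN with nutlin (median 0.61), -0.35 for BNIP3 to 0.87 for SQSTM1 with GSK2830371, -0.68 for BNIP3 to 1.43 for SQSTM1 with the combination (median 0.70), -0.01 for OPTN to 0.23 for SQSTM1 for the combination against nutlin and -0.64 for SQSTM1 to 0.42 for BNIP3 for the interaction. In K1 no receptor was called, and the ranges were 0.04 for BNIP3L to 0.26 for OPTN (median 0.11), -0.13 for OPTN to 0.33 for SQSTM1, 0.16 for OPTN to 0.54 for SQSTM1 (median 0.27), -0.11 for OPTN to 0.36 for SQSTM1 and -0.08 for BNIP3 to 0.25 for BNIP3L. With the combination in K1, 5 of the 5 receptors had an unadjusted p under 0.05, and 4 had an adjusted p under 0.05 by edgeR on the higher side, where 21% of all genes did. BNIP3 was the receptor that did not.

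Among the regulators, DRAM1 rose in both lines and the transcription factors TFEB and TFE3 were called in neither. DRAM1 (GRCh37 chr12:102271358-102405908, plus strand), a lysosomal membrane protein and known p53 target that promotes autophagy, stood in TPC1 at 25.4 and 25.6 CPM with DMSO, 89.3 and 92.8 with nutlin, 25.5 and 26.7 with GSK2830371 and 88.1 and 93.2 with the combination and in K1 at 24.7 and 22.7 CPM with DMSO, 41.1 and 49.9 with nutlin, 24.2 and 24.5 with GSK2830371 and 42.2 and 44.9 with the combination. In both lines the libraries fell into a low pair of groups, DMSO and GSK2830371, and a high pair, nutlin and the combination. Nutlin changed it by 1.87 ± 0.0805 (SE, edgeR adjusted p = 1.3e-07) in TPC1 and 0.96 ± 0.0912 (SE, edgeR adjusted p = 3.1e-06) in K1, and the combination by 1.88 ± 0.0805 (SE, edgeR adjusted p = 8.6e-08) and 0.85 ± 0.0912 (SE, edgeR adjusted p = 5.4e-06). Adding GSK2830371 to nutlin moved it by 0.01 ± 0.077 in TPC1 and -0.11 ± 0.0882 in K1 (edgeR adjusted p = 0.93 and 0.49).

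TFEB, the master regulator of lysosomal and autophagy genes, stood in TPC1 at 10 and 10.2 CPM with DMSO, 10.6 and 10.8 with nutlin, 7.44 and 7.83 with GSK2830371 and 6.81 and 9.4 with the combination and in K1 at 7.65 and 5.95 CPM with DMSO, 6.47 and 6.88 with nutlin, 6.05 and 6.55 with GSK2830371 and 4.9 and 5.89 with the combination. GSK2830371 libraries of TPC1 were below DMSO, by -0.45 ± 0.148 (SE, edgeR adjusted p = 0.13). The combination gave -0.25 ± 0.147 (SE, edgeR adjusted p = 0.16) in TPC1 and -0.36 ± 0.143 (SE, edgeR adjusted p = 0.055) in K1. TFE3, of the same family, measured 0.25 ± 0.0735 and 0.09 ± 0.0497 with the combination. Regulator changes in TPC1 ran from 0.11 for TFEB to 1.87 for DRAM1 with nutlin (median 0.26), -0.45 for TFEB to 0.07 for TFE3 with GSK2830371, -0.25 for TFEB to 1.88 for DRAM1 with the combination (median 0.25), -0.36 for TFEB to 0.01 for DRAM1 for the combination against nutlin and -0.08 for TFE3 to 0.09 for TFEB for the interaction, and in K1 from -0.01 for TFEB to 0.96 for DRAM1 (median 0.15), -0.10 for TFEB to 0.16 for TFE3, -0.36 for TFEB to 0.85 for DRAM1 (median 0.09), -0.35 for TFEB to -0.06 for TFE3 and -0.25 for TFEB to -0.16 for DRAM1.

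**Figure D4:**
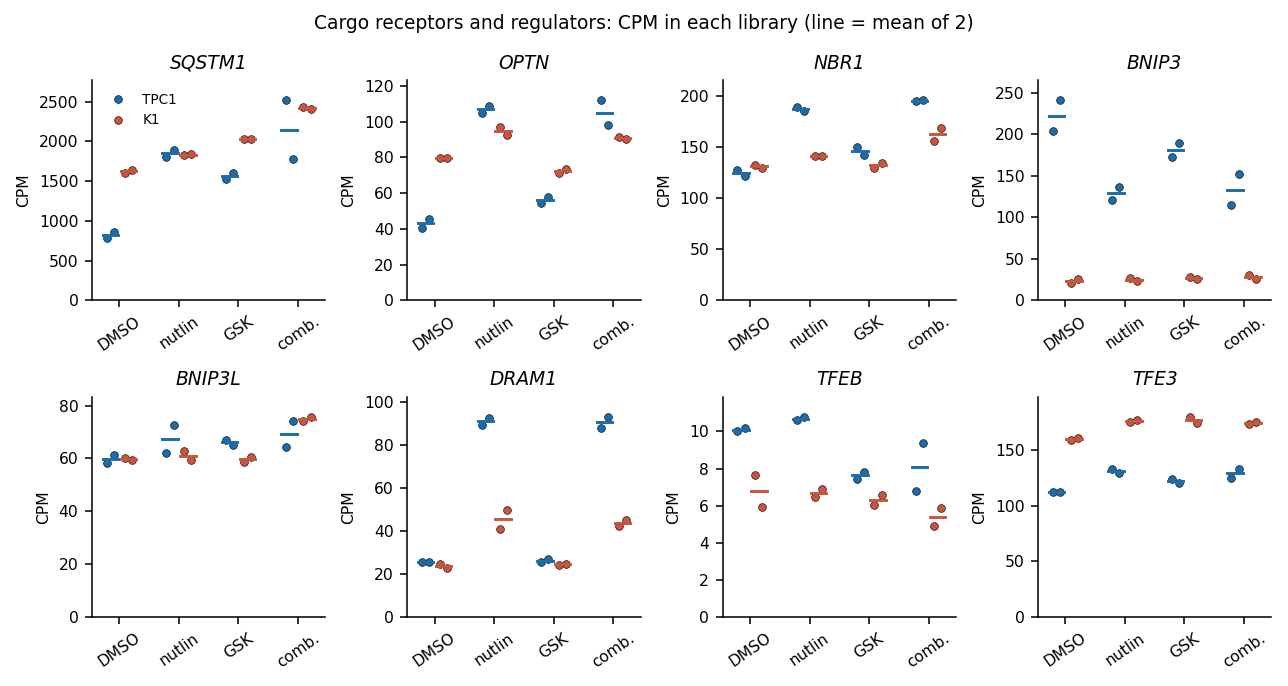
CPM (vertical axes, from 0) of the 5 cargo receptors and 3 regulators by treatment in TPC1 (blue) and K1 (red), with a point per library and a line at the mean of 2. DRAM1 stands between 88.1 and 93.2 CPM in the nutlin and combination libraries of TPC1, against 25.4 to 26.7 in the others, and BNIP3 of K1 stays between 21 and 30.9 CPM throughout.

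The lines differed at baseline for 11 of the 40 genes. In a model over all 16 libraries, 9 autophagy genes (22.5%) were called higher in K1 than TPC1 with DMSO, where 25% of 16738 genes were, and 2 (5%) lower, where 21.2% were. K1 and TPC1 also differed in medium and depth, and the part of these and of the line itself cannot be told apart. WIPI1 was higher in K1 by 3.13 ± 0.103 (SE, edgeR adjusted p = 1.2e-13) on the log2 scale and ATG16L2 by 1.66 ± 0.118 (SE, edgeR adjusted p = 2.2e-09), from the DMSO levels given above. BNIP3, at 21 and 25.3 CPM in K1 with DMSO, had a K1 minus TPC1 difference of -3.27 ± 0.154 (SE, edgeR adjusted p = 1.1e-11), and GABARAPL1 one of -0.98 ± 0.0891 (adjusted p = 4.6e-08).

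ATG101 stood with DMSO at 38.8 and 41.2 CPM in TPC1 and 104 and 109 in K1, and UVRAG, a partner of the PI3-kinase complex, at 19.3 and 20.6 and 41.4 and 42.9. Their K1 minus TPC1 differences were 1.41 ± 0.0908 and 1.07 ± 0.0986. SQSTM1 (0.97 ± 0.114), ATG4A (0.95 ± 0.142) and OPTN (0.88 ± 0.0825) were also higher in K1. So were ATG3, at 66.2 and 71.1 CPM in TPC1 and 110 and 109 in K1 (0.67 ± 0.074), and ATG12, at 37.7 and 37 and 57 and 57.4 (0.61 ± 0.0762). Both of these last calls fell under the fold minimum with the GC and length correction, at 0.54 and 0.44.

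Per kilobase of exon, the order of DMSO levels in TPC1 was headed by SQSTM1 (109 CPM per kilobase), GABARAP (65.9), BNIP3 (54.9), TFE3 (26.6) and ATG9A (20.7), and in K1 by SQSTM1 (216), GABARAP (65.8), TFE3 (38), ATG101 (33.5) and WIPI1 (19.9). In TPC1 the DMSO libraries of GABARAP, at 53.6 and 78.1, overlapped those of BNIP3, so that these neighbours did not differ beyond their spread. The low end, apart from MAP1LC3A, was held by ATG16L2 (0.328) and ATG10 (0.871) in TPC1. In K1 it was held by ATG10 (1), TFEB (1.01) and ATG16L2 (1.03), whose libraries overlapped. The lengths cover all GENCODE exons of a gene, while the authors counted reads on a UCSC annotation. The order by the lengths of that annotation was not computed.

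The log2 fold change with nutlin was called lower in K1 than TPC1 for 10 autophagy genes, or 25%, where 10.5% of all genes were. It was called higher for 1 (2.5%), where 8.73% were. For the combination the counts were 9 (22.5%) against 13.8%, and 2 (5%) against 11.9%. These counts go by sign, so a gene lowered in TPC1 and less so in K1 counts as higher. The share of all genes called lower is thus not a share with a weaker response. Autophagy genes called in TPC1 were mostly raised, unlike genes as a whole. The 40 genes had a median difference in log2 fold change of -0.17 for nutlin and -0.16 for the combination, where all genes had -0.03 and -0.02. With scaling by library size alone, the all-gene median for the combination was 0.09. The calls over all genes were then 2563 higher and 1867 lower in K1, in place of 1991 and 2316. The autophagy genes numbered 3 higher and 6 lower with that scaling, in place of 2 and 9. ATG16L2 differed most, by -1.92 ± 0.158 (SE, edgeR adjusted p = 1.8e-07) for nutlin and -2.20 ± 0.156 (SE, edgeR adjusted p = 1.9e-08) for the combination, with K1 levels of 9.47 and 8.07 CPM with DMSO, 9.59 and 9.69 with nutlin, 9.96 and 9.32 with GSK2830371 and 11.6 and 11.9 with the combination. OPTN differed by -1.12 ± 0.116 and -1.20 ± 0.116, SQSTM1 by -1.05 ± 0.16 and -0.91 ± 0.16, and DRAM1, called in both lines, by -0.95 ± 0.133 and -1.06 ± 0.133. MAP1LC3B differed in its combination response by -1.19 ± 0.134 (SE, edgeR adjusted p = 3.2e-06). ULK1, ATG2A, ATG4D and GABARAP were the other genes with a smaller response in K1 to both nutlin and the combination. For the combination, the calls of 3 of these were lost with scaling by library size alone, at -0.55 for ULK1, -0.55 for ATG2A and -0.53 for GABARAP. Those of ULK1 and ATG2A were also lost with the GC and length correction (-0.56 and -0.55). Leaving out K1 DMSO replicate 1 gave -0.58 for ULK1, and leaving out TPC1 DMSO replicate 3 or TPC1 combination replicate 1 gave -0.58 and -0.45 for ATG2A, all under the fold minimum. GABARAP measured -0.37 without TPC1 DMSO replicate 1 (edgeR adjusted p = 0.092), and was not called without K1 DMSO replicate 1 or either K1 combination library (-0.59 to -0.67, edgeR adjusted p from 0.05 to 0.078).

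Larger values in K1 were found for BNIP3, by 0.83 ± 0.206 (SE, edgeR adjusted p = 0.0054) for nutlin and 0.91 ± 0.205 (SE, edgeR adjusted p = 0.0021) for the combination, where the gene fell in TPC1 and measured 0.11 ± 0.107 and 0.26 ± 0.106 in K1. GABARAPL1 was the other, with a combination response larger in K1 by 0.71 ± 0.121 (SE, edgeR adjusted p = 0.0002). Of the genes raised in each line, 2 were shared with nutlin, ATG4A and DRAM1, out of 12 in TPC1 and 3 in K1. With the combination 5 were shared, ATG4A, DRAM1, GABARAPL1, MAP1LC3B and WIPI1, which are all 5 raised in K1 and 5 of the 14 raised in TPC1. ATG10, at 4.34 and 5.15 CPM with DMSO and 5.33 and 6.82 with nutlin in TPC1 and 5.49 and 5.44 and 4.47 and 4.81 in K1, was called for its nutlin response, -0.65 ± 0.223 (SE, edgeR adjusted p = 0.036), although its change was called in neither line. That call was lost without any one of 6 libraries, with edgeR adjusted p from 0.058 to 0.22.

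By role, K1 minus TPC1 differences of the ULK complex ran from -0.34 for RB1CC1 to 1.41 for ATG101 in DMSO level, from -0.96 for ULK1 to 0.48 for ATG101 in nutlin response and from -0.66 for ULK1 to 0.55 for ATG101 in combination response. For the PI3-kinase complexes, none of whose responses was called different, the same ranges were -0.50 for PIK3C3 to 1.07 for UVRAG, -0.43 for UVRAG to 0.21 for PIK3R4 and -0.47 for UVRAG to 0.35 for PIK3R4. Membrane and lipid genes spanned -0.44 for WIPI2 to 3.13 for WIPI1, -0.91 for ATG2A to 0.15 for ATG9A and -0.66 for ATG2A to 0.40 for ATG9A. Conjugation genes spanned -0.07 for ATG5 to 1.66 for ATG16L2, -1.92 for ATG16L2 to 0.47 for ATG5 and -2.20 for ATG16L2 to 0.34 for ATG5. The ATG8 family spanned -0.98 for GABARAPL1 to -0.01 for GABARAP, -0.86 for GABARAP to 0.11 for GABARAPL1 and -1.19 for MAP1LC3B to 0.71 for GABARAPL1. Receptors spanned -3.27 for BNIP3 to 0.97 for SQSTM1, -1.12 for OPTN to 0.83 for BNIP3 and -1.20 for OPTN to 0.91 for BNIP3, the widest baseline range of the 7 groups. Regulators spanned -0.58 for TFEB to 0.51 for TFE3, -0.95 for DRAM1 to -0.14 for TFE3 and -1.06 for DRAM1 to -0.14 for TFEB.

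**Figure D5:**
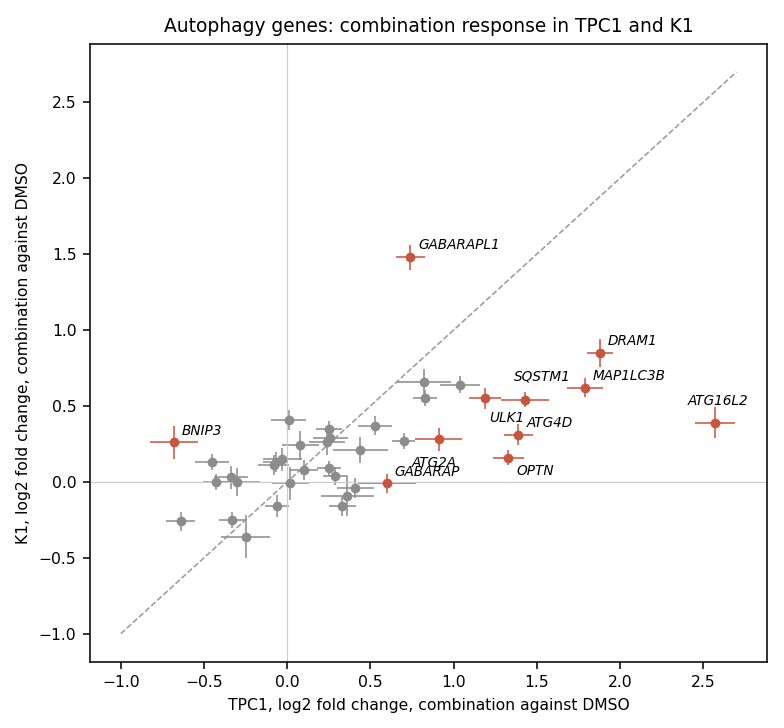
Log2 fold change with the combination against DMSO in TPC1 (horizontal) and K1 (vertical) for the 40 tested autophagy genes, with bars of 1 SE and a dashed line of equal change. Red points, labelled, are the 11 genes whose response was called different between the lines. GABARAPL1 and BNIP3 lie above the dashed line and the other 9 below it.

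A second list of 40 genes around the same pathway, such as membrane fusion factors, receptors for the endoplasmic reticulum and mitochondria and p53-inducible cofactors, was counted in the same way. In TPC1 nutlin raised 14 of 40 (35%, against 17.5% of all genes) and lowered 1 (2.5%, against 18%). GSK2830371 raised 1 (2.5%, against 0.72%) and lowered none by edgeR, against 0.681%, with 2 lower at an unadjusted p under 0.05. The combination raised 15 (37.5%, against 22.5%) and lowered 1 (2.5%, against 21.7%). The combination against nutlin raised 2 and lowered 2 (5% each, against 6.46% and 5.66%). By edgeR 2 negative interactions (5%, against 3.5%) and no positive one (against 2.82%) were called, with 4 positive at an unadjusted p under 0.05. Medians were 0.31, 0.13, 0.44, 0.05 and -0.07. In K1, 39 were tested. Nutlin raised 3 (7.69%, against 3.84% of all genes), the combination raised 5 (12.8%, against 7.62%), and 1 interaction was positive (2.56%, against 1.79%), with no other call by edgeR in the 5 comparisons. At an unadjusted p under 0.05, 2 were lower with nutlin, 14 higher and 7 lower with GSK2830371, 3 lower with the combination, 9 higher and 5 lower for the combination against nutlin, and 5 had a negative interaction. The K1 medians were 0.14, 0.08, 0.15, 0.06 and -0.06.

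The 4 largest combination changes of that list in TPC1 were TRIM22 (6.23 ± 0.305), a p53- and interferon-inducible ubiquitin ligase, TP53INP1 (4.85 ± 0.134), a p53-induced protein that binds ATG8 proteins, RETREG1 (3.02 ± 0.235), a receptor for the endoplasmic reticulum listed under the older symbol FAM134B, and TP53INP2 (2.36 ± 0.101). TP53INP1 stood in TPC1 at 19.6 and 15.3 CPM with DMSO, 542 and 510 with nutlin, 27.1 and 23.7 with GSK2830371 and 492 and 477 with the combination. TRIM22 started from 0.352 and 0.11 CPM with DMSO in TPC1, and from 36.8 and 34.6 in K1. FAM134B also started low in TPC1, at 0.407 and 0.759 CPM with DMSO, or 15 and 55 reads. In K1 TP53INP1 (2.82 ± 0.117) and TRIM22 (1.51 ± 0.0687) had the largest changes, and EI24, an endoplasmic reticulum protein, measured 0.63 ± 0.0531, with FAM134B at nearly the same value (0.63 ± 0.137). Between the lines, 11 of the 40 were higher (27.5%, against 25% of all genes) and 5 lower (12.5%, against 21.2%) in K1 with DMSO. With nutlin, 10 had a lower (25%, against 10.5%) and 1 a higher log2 fold change in K1 than TPC1 (2.5%, against 8.73%). With the combination, 8 had a lower (20%, against 13.8%) and 1 a higher one (2.5%, against 11.9%). The medians were 0.14, -0.29 and -0.25.

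Of the 41 genes, 12 are known from other work as linked to ATF4 and CHOP, the factors of the integrated stress response, and 10 as linked to p53. These lists overlap, with ATG7 and ATG10 among the genes in both, and are not separate groups. Among the ATF4-linked genes TPC1 had 3 raised with nutlin (25%, against 17.5% of all genes, median 0.37), 1 with GSK2830371 (8.33%, against 0.72%, median 0.01) and 4 with the combination (33.3%, against 22.5%, median 0.35). It also had 1 raised for the combination against nutlin (8.33%, against 6.46%, median 0.10) and 1 positive interaction (8.33%, against 2.82%, median 0.02). With so few genes, 1 call is a share of 8.33%. K1 had 1 raised with the combination (8.33%, against 7.62%), and medians of 0.06, 0.02, 0.03, 0.02 and -0.01 in the order of comparisons above. The p53-linked genes had 3 raised with nutlin and 3 with the combination in TPC1 (30% each, against 17.5% and 22.5% of all genes), and 2 and 2 in K1 (20% each, against 3.84% and 7.62%), with combination medians of 0.39 and 0.11 and nutlin medians of 0.36 and 0.03. Their medians for GSK2830371 were 0.16 in TPC1 and 0.05 in K1, for the combination against nutlin 0.05 and 0.10, and for the interaction -0.10 and 0.05. Between the lines, 3 of 12 (25%) and 2 of 10 (20%) were higher in K1 with DMSO, against 25% of all genes. A lower log2 fold change in K1 was called for 3 and 3 with nutlin (25% and 30%, against 10.5%). With the combination it was called for 3 and 2 (25% and 20%, against 13.8%).

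For reference, CHAC1, a glutathione-degrading enzyme induced by ATF4 and CHOP, stood in TPC1 at 26.7 and 27.4 CPM with DMSO, 10.1 and 9.54 with nutlin, 88.5 and 92.5 with GSK2830371 and 293 and 326 with the combination and in K1 at 14 and 11.8 CPM with DMSO, 7.03 and 4.97 with nutlin, 12.9 and 16.8 with GSK2830371 and 65.6 and 76.9 with the combination. It fell with nutlin and was highest with the combination in both lines. ASNS, asparagine synthetase and another ATF4 target, changed with the combination by 1.75 ± 0.116 in TPC1 and 0.71 ± 0.203 in K1, its 2 K1 DMSO libraries standing at 59 and 90.9 CPM. MAP1LC3B in TPC1 shared with CHAC1 and ASNS a called positive interaction, of 3.31 for CHAC1 and 1.11 for ASNS, as had 2.82% of all genes. It differed from CHAC1 in that nutlin alone did not lower it. ASNS libraries with nutlin, at 53.3 and 55.7 CPM in TPC1, also lay below those with DMSO, at 68.9 and 78.7. GSK2830371 alone took ASNS to 150 and 165 CPM in TPC1, while MAP1LC3B changed by 0.26 on the log2 scale. Whether these genes share a cause was not tested.

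Promoter sequences, 250 bases before to 50 after the start site, were given by RefSeq (GRCh38.p14) for 36 of the 41 genes. The motifs were searched on both strands. The E-box CACGTG, a core bound by TFEB and related factors, lay in 3 of the 36 (8.33%), against 7.43% of all 27305 promoters. The longer CLEAR motif, the same letters preceded by GT and followed by AC, lay in 0 of 36 and 0.381% of all, and TGATGNAA, the core of the CARE element bound by ATF4 with CHOP or C/EBP, in 0 of 36 and 3.67% of all. The share with an E-box was thus close to that of all promoters. A stretch with an E-box is shown for each of the 3 genes, 5′ to 3′ on the gene's strand (minus for each) with the motif in capitals: ATG3 at chr3:112561963-112562004, BNIP3 at chr10:131982028-131982081 and ATG14 at chr14:55411831-55411875. The ATG3 promoter held a second E-box, 5 bases past the start site, which is not shown.
ATG3: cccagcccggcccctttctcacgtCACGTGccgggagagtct
BNIP3: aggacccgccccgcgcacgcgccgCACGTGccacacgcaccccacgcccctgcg
ATG14: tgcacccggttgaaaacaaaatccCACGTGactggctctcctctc

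None of these 3 genes was called raised in a treatment comparison, and BNIP3 was the receptor that fell in TPC1. For MAP1LC3B, the gene with the called interaction in TPC1, the 120 bases before the start site (GRCh38.p14 chr16:87392216-87392335, plus strand) are shown because no searched motif matched there.
MAP1LC3B: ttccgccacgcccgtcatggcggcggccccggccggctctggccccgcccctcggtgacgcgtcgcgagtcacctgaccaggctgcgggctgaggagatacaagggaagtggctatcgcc
The absence of a match says only that these letters are not in the window searched.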

How the data were processed

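The authors sequenced stranded, polyadenylated RNA as single reads, aligned them to GRCh37 with TopHat2 2.0.13, discarded poorly mapped reads and counted the rest per gene, by strand, with HTSeq 0.6.1, per the paper's methods and the submitters' processing notes. The deposited values are raw read counts for 25369 gene symbols in 16 libraries, used as deposited. In TPC1, 4 columns carry the number 3, which the titles do not hold, and were assigned to their treatment only.

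Genes above 0.1 CPM in at least 2 libraries were kept (15273 in TPC1, 15900 in K1, 16738 over both). Counts were scaled by TMM (factors 0.961 to 1.04 in TPC1, 0.981 to 1.03 in K1) and tested with edgeR 4.0.16 (quasi-likelihood, Benjamini-Hochberg) in R 4.3.3, with all 4 treatments of a line in one model, and all 8 groups for differences between the lines. A call needed an adjusted p under 0.05 and a fold above 1.5. The SE given is the size of the log2 fold change divided by the square root of the F statistic of that test. CPM were computed from library totals. Exon length, GC content and overlaps came from GENCODE on GRCh37, matched for 89.6% of symbols; 94.5% to 95.1% of tested genes had values for the GC correction. DESeq2 1.42.0 and the other alternatives are given with their effect in the closing section.

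Members, role groups and other lists were chosen with earlier results of these data known. Every member is accounted for. A member called in a comparison of a line is given with its values, the others by range with the highest and lowest of each role group, and of the second list the 4 largest combination changes per line, of which 1 in K1 is not reported here. Libraries of a group differed beyond counting error (chi-square per gene 11 to 45.9 in TPC1, 4.75 to 7.76 in K1).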

Additional observations from a re-analysis of the deposited data

Results flagged for a closer look

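The nutlin response of 11 autophagy genes and the combination response of 11 (27.5% each) differed between TPC1 and K1 by a test of the difference itself. The test was the edgeR interaction of line and treatment, at adjusted p under 0.05 and fold above 1.5. Of all genes 19.2% and 25.7% differed, so the share for the combination was close to that of all genes. Among the autophagy genes so called, 10 and 9 had a lower log2 fold change in K1 (25% and 22.5%, against 10.5% and 13.8% of all genes). These shares go by sign and do not measure how many genes of either set responded more weakly. Line, medium and depth cannot be told apart in this difference. For nutlin, the K1 minus TPC1 difference in log2 fold change was -1.92 for ATG16L2, -1.12 for OPTN, -1.05 for SQSTM1, -0.96 for ULK1, -0.95 for DRAM1 and -0.91 for ATG2A. It was -0.86 for GABARAP, -0.81 for ATG4D, -0.68 for WIPI1 and -0.65 for ATG10, and it was 0.83 for BNIP3. For the combination it was -2.20 for ATG16L2, -1.20 for OPTN, -1.19 for MAP1LC3B, -1.11 for ATG4D, -1.06 for DRAM1 and -0.91 for SQSTM1. It was -0.66 for ATG2A, -0.66 for ULK1 and -0.64 for GABARAP, of which all 3 lost their call with scaling by library size alone (-0.55, -0.55 and -0.53), and it was 0.71 for GABARAPL1 and 0.91 for BNIP3. Both sets of differences share the DMSO libraries of each line, so they are not independent of each other.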

How the results depend on the processing

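Of 76 calls of single genes, 60 were kept under every alternative run, 16 were lost under at least 1, and 0 changed sign. The alternatives were other scalings, other filters on low counts, DESeq2, the compared groups alone, no fold minimum, a replicate block, a GC and length correction with and without the block, and leaving out each library. Of 506 alternative counts, 457 stayed within 1.5 times the count reported. Scaling by library size alone moved the median of all genes from -0.02 to 0.09 for the combination response between the lines, and in every other comparison either scaling moved it by less than 0.1.

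Without the fold minimum the counts of autophagy genes in TPC1 with nutlin were 22 raised (27.3% of all genes) and 8 lowered (28.3%). They were 21 raised (32%) and 6 lowered (32.1%) with the combination, and 4 raised (13.2%) and 1 lowered (12.9%) for the combination against nutlin. In K1 they were 14 (13.5%) and 2 (16.6%) with nutlin, 12 (8.4%) and 2 (10.8%) with GSK2830371, 18 (21%) and 2 (22.2%) with the combination, 8 raised (5.89%) for the combination against nutlin, and 2 positive (5.24%) and 1 negative (2.83%) interactions. Between the lines they were 15 higher (34.7%) and 9 lower (33%) in K1 with DMSO. The log2 fold change with nutlin was higher in K1 for 3 (14.6%) and lower for 15 (16.5%). With the combination it was higher for 6 (18.9%) and lower for 15 (19.7%).

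With the GC and length correction, alone or with the block, the combination against nutlin raised 2 genes in TPC1 (ATG16L2 added) in place of 1, and K1 had 0 positive interactions in place of 1. Negative interactions in TPC1 numbered 1 in place of 0 without the filter and by DESeq2 (SQSTM1), and 1 with the correction, alone or with the block (WIPI1). With library size alone K1 had 2 positive interactions, and with the compared groups alone GSK2830371 raised 1 gene in TPC1.

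Leaving out 1 library at a time gave 0 to 2 genes raised by GSK2830371 in TPC1 (0 without any one of the DMSO, GSK2830371 or nutlin libraries), 1 to 4 lowered by nutlin (4 without nutlin replicate 3), 1 to 2 lowered by the combination (1 without DMSO replicate 1, DMSO replicate 3 or combination replicate 1), 1 to 2 raised (2 without nutlin replicate 1) and 0 to 1 lowered (1 without combination replicate 3) for the combination against nutlin, and 0 to 3 negative interactions (3 without combination replicate 1). In K1 it gave 0 to 1 lowered by GSK2830371 (1 without GSK2830371 replicate 2) and 0 to 2 positive interactions (0 without combination replicate 2 or nutlin replicate 2, and 2 without GSK2830371 replicate 2 or nutlin replicate 1). Without TPC1 nutlin replicate 3, the K1 minus TPC1 difference in nutlin response was 0.62 for ATG101 and 0.60 for ATG5, both over the fold minimum. A lone library left in a group was taken to vary like the others. Leaving out a library changes both the number and the choice of libraries, and the cause of these shifts was not tested.

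With the replicate number as a block, 1 negative interaction was called in TPC1 in place of 0 (SQSTM1, -0.64, edgeR adjusted p = 0.0052), and no other count of autophagy genes moved by over 1.5 times. Deviations of libraries with the same number correlated at 0.496 to 0.696 over the 6 pairs of treatments in TPC1 and at -0.357 to 0.376 in K1, across 12303 and 12546 genes, which are not independent. With 2 numbers a line, this is a hint from the data and not a pairing given by the design.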
